A study of Mus musculus with 8 samples.

Results

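The collagen genes of the developing mouse molar are described here, as measured by RNA sequencing in K14Cre;Jagged1fl/fl embryos and their WT littermates. A gene was taken as a member when its Ensembl identifier belonged to a protein-coding gene whose symbol gives a numbered collagen type and alpha chain (Col1a1, Col4a2 and the like). The pattern reads symbols and not expression values, and it found 44 genes among the 43629 identifiers counted, on 15 chromosomes. They were grouped by the structure their proteins form: 11 fibrillar chains, 9 chains of the basement membrane zone, 9 fibril-associated (FACIT) chains, 4 transmembrane chains and 11 others. The embryos were taken at E18.5, near birth, when the crown cells of the first molar start to lay down enamel and dentin matrix. The mutant group held 4 embryos (K14J26, K14J28, K14J29 and K14J30) in which Cre driven by the keratin 14 promoter deletes the floxed Jagged1 gene, which codes for a Notch ligand, in epithelium. The WT group held 4 littermates (J3, J5, J6 and J7) that by the labels carried the floxed Jagged1 alleles without Cre. The name WT follows the publication. Each library came from the left and right lower first molars of 1 embryo, pooled, so that the dental epithelium, in which the promoter is active, and the mesenchyme, in which it is not, were measured together.

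Collagens are secreted or membrane-bound proteins in which 3 alpha chains wind into a triple helix. Fibrillar collagens build the fibres of dentin, bone and loose connective tissue, and type I collagen is the main protein of the dentin matrix that odontoblasts secrete. Type IV chains form the sheet of the basement membrane between epithelium and mesenchyme and around vessels, while FACIT chains sit on the surface of fibrils and transmembrane chains anchor cells to their matrix. Chains are combined by type, as in the type I trimer of alpha chains from Col1a1 and Col1a2.

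The libraries held 17327224 to 28613574 gene counts in the WT group and 24692128 to 29792467 in the mutant group, at which 3 counts equal at most 0.166 CPM (counts scaled to the TMM-adjusted library size). The deleted gene, Jag1, had 95.2 to 104 CPM in WT molars and 34 to 57.1 CPM in mutant molars, with no overlap. Values per embryo are listed in the order J3, J5, J6, J7 for WT and K14J26, K14J28, K14J29, K14J30 for mutants. Several libraries stood apart from the others of their group. Summed levels of 8 skeletal muscle markers were high in J6 and J7, reaching 404 CPM against at most 20.2 CPM in any mutant. The enamel genes Amelx, Ambn and Enam took 9.57% of all counts in K14J26, and between 0.356% and 2.47% in the remaining mutants. The 4 macrophage markers summed to 148 CPM in K14J28, from Csf1r and Cd68 and not from C1qa or Adgre1, against at most 81.3 CPM in any other embryo, and Xist was high in K14J28 and K14J29 alone. Calls that depended on single embryos are therefore given gene by gene, and the fit without J6 and J7 mainly for the members together.

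The count filter was passed by 42 of the 44 collagen genes. The left-out genes were Col10a1, the chain of hypertrophic cartilage, and Col19a1, a rare FACIT chain, which had at most 4 and 2 counts in any library. At such counts a difference is hard to detect. With no count filter all 44 were tested, and neither of these genes was called. Of the 42, 6 were higher and 4 lower in mutant molars when the Benjamini-Hochberg adjusted p of the quasi-likelihood test in edgeR, over 17129 genes, was required to be under 0.05, while 9.52% of all tested genes were called higher and 6.61% lower. The higher genes were Col11a2, Col1a2, Col1a1, Col28a1, Col27a1 and Col7a1, and the lower ones Col8a2, Col26a1, Col15a1 and Col4a1. Together they were 23.8% of the tested members, against 16.1% of all tested genes. By the study's criteria, read here as p no greater than 0.05 before adjustment and an absolute log2 fold change from 0.5 upwards (the log2 scale and the absolute size are not spelled out in the methods), 11 members were higher and 4 lower, against 8.33% and 5.85% of all tested genes. All 6 higher calls were among these 11, whereas the 4 lower genes were Col26a1, Col8a2, Col6a6 and Col8a1, without Col15a1 and Col4a1. The 2 groups of values were fully apart for 6 higher and 5 lower members (26.2% in all), against 24.2% of all tested genes.

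The members did not move in a common direction. Their median log2 fold change was -0.038 (mutant over WT), close to the 0.0058 of all tested genes, and 20 were above 0 and 22 below it. The median size of the change, regardless of sign, was 0.30 on the log2 scale, against 0.22 over all tested genes. By class, the median was 0.43 for the fibrillar chains, 0.21 for FACIT, -0.056 for transmembrane, -0.18 for basement membrane and -0.42 for the other chains. The FACIT median depended on K14J26. Without that embryo Col20a1, Col9a1 and Col9a2 fell just below 0, where Col12a1 and Col14a1 also lay, so the FACIT median was no longer above 0. The 6 higher calls fell in the fibrillar (4 of 11), basement membrane (1 of 9) and other chains (1 of 10 tested), and the 4 lower calls in the basement membrane (2) and other chains (2). No FACIT chain (0 of 8) and no transmembrane chain (0 of 4) was called by edgeR, with 1 of each at an unadjusted p under 0.05, and DESeq2 called Col9a3 and Col17a1 higher. By edgeR, Col9a3 and Col17a1 were higher with no count filter, with Xist as a covariate and without K14J28, and Col17a1 also without K14J26. Col12a1 was lower with Xist as a covariate and without K14J28, and Col14a1 without K14J28.

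**Figure D1:**
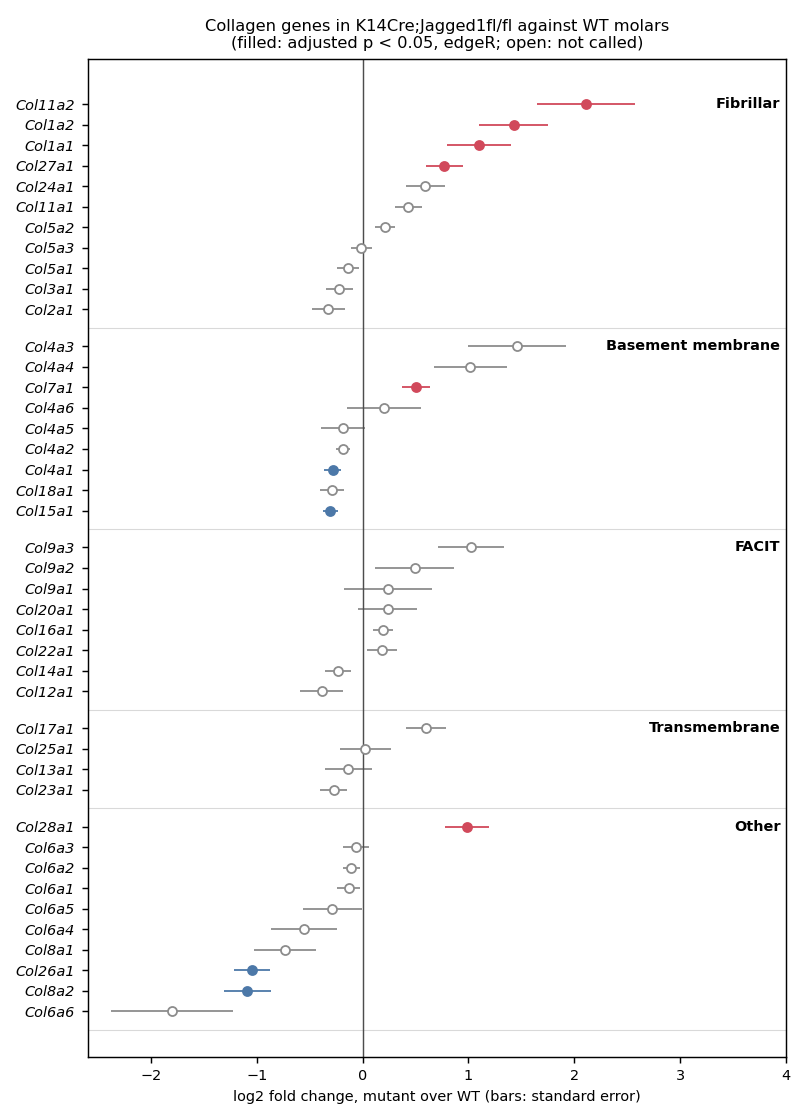
Log2 fold change (mutant over WT, horizontal axis) of the 42 tested collagen genes, by class, with standard errors as bars and filled points for an edgeR adjusted p under 0.05. Filled points to the right are 4 fibrillar chains, Col7a1 and Col28a1, the largest being Col11a2 at 2.12, and those to the left are Col4a1, Col15a1, Col26a1 and Col8a2.

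Which calls were made depended on the embryos included. Without J3, J5, J7 or K14J29, edgeR called no member higher, although 12, 12, 14 and 12 members were then higher at an unadjusted p under 0.05. Without K14J28, 12 members were called higher and 8 lower. The counts over all genes moved in the same way, from 1631 higher calls to 373, 451, 300 and 250 in those 4 fits and to 2479 without K14J28. Without J6 and J7 together, no member was called in either direction (13 higher and 4 lower at an unadjusted p under 0.05) and 7 genes in all passed. The edgeR adjusted p of the 10 called members then ran from 0.126 for Col26a1 to 0.221 for Col4a1. For each of them it was above the values given below with 1 embryo left out. DESeq2 on the 8 libraries called 12 members higher and 7 lower, against 13.1% and 10% of all genes. It kept the 10 calls of edgeR and added Col4a3, Col4a4, Col9a3, Col11a1, Col17a1 and Col24a1 as higher and Col4a2, Col6a6 and Col8a1 as lower. The sign of each of the 10 called members was the same in all 16 alternative fits, and Col26a1 alone kept its call with any 1 embryo left out.

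Type I collagen carried the largest change in amount. Col1a1 (ENSMUSG00000001506, chr11:94936224-94953042), which encodes the alpha 1 chain and was the most abundant collagen transcript per exon length in both groups, had 3796, 5878, 6443 and 4312 CPM in WT and 16666, 5460.1, 11541 and 10173 CPM in mutant molars. K14J28 lay within the WT range and the other mutants above it, so the groups overlapped. The difference was 2.15-fold, a log2 fold change of 1.10 (standard error 0.31, edgeR adjusted p = 0.0406), and the call was lost without J3, J5, J6, J7, K14J29 or K14J30, with adjusted p up to 0.112.

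Col1a2 (ENSMUSG00000029661, chr6:4504814-4541544), the gene of the alpha 2 chain, had 1821, 3018, 3453 and 2332 CPM in WT and 11352, 3695, 7760.4 and 5748 CPM in mutant molars, in the same order of embryos. K14J28 was again the lowest mutant, but lay just above J6, the highest WT embryo, and the groups did not overlap. Col1a2 was 2.69-fold higher, a log2 fold change of 1.43 (standard error 0.33, edgeR adjusted p = 0.0238). Its call was lost without J3, J5, J7 or K14J29, with adjusted p up to 0.0772. Summed levels of odontoblast and of bone markers also did not overlap between the groups. The 3 odontoblast markers (Dspp, Dmp1 and Nes) summed to 644 to 1832 CPM in WT and 2167 to 7123 CPM in mutant molars, with Dspp and Nes called higher and Dmp1 not (edgeR adjusted p = 0.193). The 7 bone markers summed to 792 to 1069 and 1266 to 1531 CPM, with 5 of 7 called higher, against 9.52% of all tested genes. Of the other bone markers, Alpl overlapped between the groups and Ibsp was highest in K14J28, at 447 CPM. Without Ibsp, a sum added after seeing the data, the bone level of K14J28 was 818 CPM, within the 628 to 885 CPM of the WT embryos, and the other mutants had 1134 to 1382 CPM. Their part in the result was not tested, and in pooled molars more cells of a type and more RNA per cell cannot be told apart.

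Of the minor fibrillar chains, 2 were called. Col11a2 (ENSMUSG00000024330, chr17:34039437-34066685) encodes a chain of type XI collagen, which nucleates thin fibrils and is best known from cartilage. It had 53.9, 106, 144 and 69.7 CPM in WT and 720.0, 149, 433 and 316 CPM in mutant molars. Every mutant lay above every WT embryo, but K14J28 exceeded J6 only slightly, while K14J26 stood far above the rest. Its 4.33-fold difference was the largest of the called members, a log2 fold change of 2.12 (standard error 0.46, edgeR adjusted p = 0.0212), and by level per exon length it moved from rank 23 of the 44 genes in WT to rank 9 in mutant molars. Without K14J26 the log2 fold change was 1.68, and the call was lost without J3, J5, J7 or K14J29, with adjusted p up to 0.0725.

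Col27a1 (ENSMUSG00000045672, chr4:63214004-63334991), which encodes a fibrillar chain of cartilage and developing tissues, had 408, 515, 518 and 395 CPM in WT and 1067, 596, 773 and 702 CPM in mutant molars. No mutant value fell within the WT range, and K14J26 was again the highest. The gene was 1.71-fold higher, a log2 fold change of 0.77 (standard error 0.17, edgeR adjusted p = 0.0231), with the same 4 embryos needed for the call (adjusted p up to 0.075 without them). Most of the cartilage markers read beside these chains were low. Snorc was at 0 counts in all 8 libraries, and Matn1, Ucma and Cnmd stayed at or under 0.384 CPM. Matn3 and Comp reached at most 0.52 and 0.49 CPM, and Acan had 0.673 to 2.53 CPM over both groups. The 9 cartilage markers summed to 126 to 157 CPM in WT and 90.9 to 112 CPM in mutant molars, nearly all of it from Sox9 and Hapln1, and Hapln1 was called lower.

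The other fibrillar chains were not called by edgeR. Col3a1, whose homotrimer forms the reticular fibres of soft tissue and whose level per exon length ranked 3 among the collagens, had 1499.5, 1540.2, 1389 and 2062 CPM in WT and 1318, 1503, 1467 and 1285 CPM in mutant molars. Here J7 stood above all other embryos and the groups overlapped. Its fold change was -0.22 on the log2 scale (standard error 0.12, edgeR adjusted p = 0.235), and -0.090 without J7. Col11a1, the partner chain of Col11a2, had 213, 270.0, 318 and 275 CPM in WT and 382, 309.6, 415 and 343 CPM in mutant molars. Of the mutants, K14J28 alone lay inside the WT range, just under J6, and the log2 fold change of 0.43 narrowly missed the threshold (edgeR adjusted p = 0.0501). Col24a1, a chain made in bone, had 102 to 199 CPM in WT and 186 to 249 CPM in mutant molars, corresponding to a log2 fold change of 0.59 (standard error 0.18, edgeR adjusted p = 0.0559).

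Type V collagen, which is mixed into type I fibrils and limits their width, showed no chain called by edgeR or DESeq2. Col5a1 had 272, 304, 328 and 349 CPM in WT and 241, 322, 289 and 288 CPM in mutant molars. Col5a2 had 456, 536, 530.4 and 594 CPM in WT and 616, 576, 688 and 569.7 CPM in mutant molars. The values of both overlapped between the groups, with log2 fold changes of -0.14 and 0.21. The rarer Col5a3 stayed at 12.6 to 15.2 CPM in WT and 12.5 to 15.6 CPM in mutant molars. Col2a1, the main chain of hyaline cartilage, was low in both groups, at 10.6 to 15.6 and 8.21 to 11.9 CPM (edgeR adjusted p = 0.171).

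**Figure D2:**
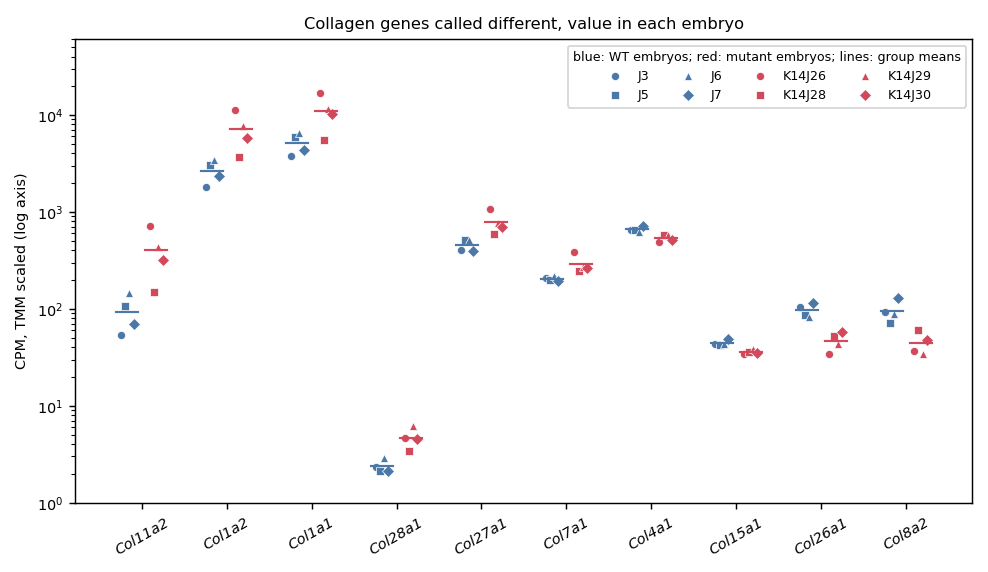
CPM (vertical log axis) of the 10 called collagen genes in each of the 8 embryos, with group means as lines. K14J28 is the mutant nearest to the WT embryos for the 6 higher genes, and for Col1a1 it lies among them.

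The stretch upstream of the start site is shown for 4 of the called genes, to let the sequences of chains that were higher (Col11a2, Col1a2 and Col27a1) be read beside one that was lower (Col8a2). The sequences come from RefSeq on GRCm38.p6, run 5′ to 3′ on the plus strand, which is the strand of all 4 genes, and lie at chr17:34038888-34039137, chr6:4505370-4505492, chr4:63215162-63215411 and chr4:126286544-126286792. By the GENCODE M21 annotation none of these bases is exonic. The Col11a2 and Col8a2 stretches precede the gene, and those of Col1a2 and Col27a1 lie in introns of longer transcripts of the same gene. For Col1a2 the 125 bases next to the start site are left out, as they are exonic in such a transcript. Capitals mark matches, on either strand, to 5 motifs, which were the CCAAT box, the TATA element TATAAA, the GC box GGGCGG, the core ACCACA bound by Runx factors and the core TGGGAA bound by RBPJ, the DNA-binding partner of Notch.
Col11a2: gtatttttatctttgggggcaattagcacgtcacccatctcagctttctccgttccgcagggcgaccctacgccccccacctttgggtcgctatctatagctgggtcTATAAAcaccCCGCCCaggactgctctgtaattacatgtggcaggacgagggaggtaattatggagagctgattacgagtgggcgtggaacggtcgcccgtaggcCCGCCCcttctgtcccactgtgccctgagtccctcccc
Col1a2: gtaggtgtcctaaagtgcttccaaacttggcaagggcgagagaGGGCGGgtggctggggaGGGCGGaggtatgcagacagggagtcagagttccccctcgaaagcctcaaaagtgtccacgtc
Col27a1: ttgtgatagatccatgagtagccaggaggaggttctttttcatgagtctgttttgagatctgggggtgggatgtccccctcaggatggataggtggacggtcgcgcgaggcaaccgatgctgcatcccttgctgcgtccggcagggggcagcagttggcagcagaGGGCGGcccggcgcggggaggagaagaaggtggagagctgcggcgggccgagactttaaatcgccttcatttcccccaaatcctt
Col8a2: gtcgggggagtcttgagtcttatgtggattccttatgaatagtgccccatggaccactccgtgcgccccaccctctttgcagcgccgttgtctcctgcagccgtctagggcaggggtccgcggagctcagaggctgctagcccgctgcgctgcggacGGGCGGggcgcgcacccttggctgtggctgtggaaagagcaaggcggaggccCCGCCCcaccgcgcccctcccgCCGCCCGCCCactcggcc
The GC box was the motif found in each of them. Col11a2 held it at 133 and 38 bases before the start and a TATAAA match at 143 bases, Col1a2 at 205 and 188 bases, and Col27a1 at 85 bases. In Col8a2 it began at 93, 41, 19 and 15 bases, the last 2 matches overlapping.

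Over windows from 250 bases before to 50 after the start, GGGCGG was present for 22 of the 35 members in the table (62.9%), and for 38.2% of all 27025 genes. It was found for 4 of 5 higher members, 2 of 3 lower members and 16 of 25 members that were not called. CCAAT was present for 37.1% of the members (41.1% of all genes), TATAAA for 14.3% (15.7%), ACCACA for 8.57% (18.9%) and TGGGAA for 34.3% (28.3%). These are matches of letters, not measured sites. Col1a1 and Col26a1 had no entry in the table.

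In the basement membrane zone, 1 of the main type IV chains and a multiplexin were lower and the anchoring fibril chain was higher. Col4a1 (ENSMUSG00000031502, chr8:11198423-11312826), which encodes the alpha 1 chain of the common type IV network, had 642, 647, 625 and 721 CPM in WT and 492, 579, 581 and 511 CPM in mutant molars. All 4 mutants lay under the lowest WT embryo, J6. The fall was small, a log2 fold change of -0.29 (standard error 0.079, edgeR adjusted p = 0.0397), and the call held in only 1 of the 8 fits with an embryo left out, that without K14J28, with adjusted p up to 0.102 in the others. Col4a2, the partner chain in the same trimer, had 435, 444, 439 and 499.9 CPM in WT and 373, 413, 417 and 395 CPM in mutant molars. These did not overlap either, and the log2 fold change of -0.19 missed the threshold (edgeR adjusted p = 0.0868).

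Col15a1 (ENSMUSG00000028339, chr4:47208161-47313167), a multiplexin of vessel and muscle basement membranes, had 43.1, 42.7, 43.2 and 48.4 CPM in WT and 34.4, 35.5, 38.9 and 34.9 CPM in mutant molars. The 8 values formed separate, narrow groups, with J7 above the other WT embryos. The log2 fold change was -0.30 (standard error 0.07, edgeR adjusted p = 0.0243), and the call was lost without J3, J5, J7 or K14J29, with adjusted p up to 0.0683. Col18a1, the related multiplexin from which endostatin is cut, had 335, 346, 326 and 385 CPM in WT and 222, 327, 282 and 304 CPM in mutant molars. K14J28 alone lay in the WT range, and the log2 fold change of -0.29 was not called (edgeR adjusted p = 0.104). Endothelial markers, 6 genes of vessel cells that make such basement membranes, summed to 289.5 to 319 CPM in WT and 231 to 281 CPM in mutant molars, with 1 of 6 (Tie1) called lower, against 6.61% of all tested genes. Their part in the result was not tested.

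Col7a1 (ENSMUSG00000025650, chr9:108953586-108984875) encodes the chain of the anchoring fibrils that fasten epithelial basement membrane to the underlying tissue, and it is made largely by epithelium. It had 209.9, 196, 218 and 195 CPM in WT and 384, 243, 271 and 261 CPM in mutant molars. The WT values lay close together and every mutant was above them, K14J26 most. The gene was 1.42-fold higher, a log2 fold change of 0.50 (standard error 0.13, edgeR adjusted p = 0.036). The call was lost without J3, J5, J6, J7 or K14J29, with adjusted p up to 0.1. The 6 dental epithelium markers, of which Krt14 was called higher, summed to 4654 to 5368 CPM in WT and 5483 to 8078 CPM in mutant molars, and their part in the result was not tested.

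The remaining type IV chains were minor. Col4a3 and Col4a4, chains of the kidney type network, had 0.277 to 0.778 and 1.44 to 2.33 CPM in WT and 0.499 to 1.73 and 2.36 to 5.48 CPM in mutant molars. Their log2 fold changes of 1.46 and 1.02 were large for the class, but neither was called (edgeR adjusted p = 0.0599 and 0.0691), and that of Col4a3 rests on at most 50 counts in a library. Values of Col4a4 did not overlap, by a narrow margin. Col4a5 and Col4a6, X-linked chains of the third network, showed 12.4 to 22.4 and 1.52 to 4.56 CPM in WT and 12.6 to 21.6 and 3.12 to 6.09 CPM in mutant molars, with adjusted p of 0.554 and 0.712 in edgeR. The 6 type IV genes lie in 3 pairs that start next to each other on opposite strands. The ends of Col4a1 and Col4a2 overlap by 22 bases, Col4a3 and Col4a4 are 71 bases apart, and Col4a5 and Col4a6 are 1308 bases apart. The kit does not mark the strand, so reads on the shared bases, 0.29% of the Col4a1 exons, cannot be told apart.

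None of the 8 FACIT chains tested was called by edgeR. Col9a3, a chain of type IX collagen, was the highest of them per exon length over the 8 libraries, with 99.9, 108, 128 and 86.8 CPM in WT and 362, 108, 214 and 176 CPM in mutant molars. Of the mutants, K14J28 alone lay within the WT range, and K14J26 stood well above all others. The log2 fold change of 1.02 had a standard error of 0.31 and narrowly missed the threshold (edgeR adjusted p = 0.0524). The gene shares 6.07% of its exon bases with Tcfl5 on the other strand, a gene with a mean of 50.1 counts against 3873 for Col9a3.

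Col22a1, a chain of tissue junctions, had 276, 281, 328 and 265 CPM in WT and 241, 312, 353 and 400.1 CPM in mutant molars. Col12a1, which links type I fibrils in dense connective tissue, had 425, 528, 418 and 601 CPM in WT and 291, 547, 367 and 301 CPM in mutant molars. Both overlapped between the groups (edgeR adjusted p = 0.385 and 0.21), and K14J28 had the highest Col12a1 level of the mutants. Col14a1 and Col16a1 stayed within 97.6 to 126 and 65.8 to 88.5 CPM in WT and 80.2 to 117 and 79.5 to 87.7 CPM in mutant molars. The other type IX chains differed in level from Col9a3, Col9a2 having 17.4 to 33.6 and 18.8 to 68.4 CPM and Col9a1 only 0.494 to 0.743 and 0.333 to 1.2 CPM.

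Among the transmembrane chains, Col17a1, the hemidesmosome collagen of basal epithelial cells, was the most abundant. It had 259, 296, 359 and 299.9 CPM in WT and 657, 355, 441 and 384 CPM in mutant molars. K14J28 lay just under J6 and the other mutants above every WT embryo. The log2 fold change was 0.60 (standard error 0.19) and was not called (edgeR adjusted p = 0.0569). Without K14J26 it was smaller, at 0.38, but was called (edgeR adjusted p = 0.0444). Col23a1 had 119, 114, 149.5 and 143 CPM in WT and 119, 90.3, 98.4 and 128 CPM in mutant molars. Col13a1, a chain of cell adhesion sites, had 9.41, 13.1, 8.09 and 13.5 CPM in WT and 7.3, 12.9, 11.5 and 8.53 CPM in mutant molars. Both overlapped (edgeR adjusted p = 0.16 and 0.692). Col25a1, known from motor axon growth into muscle, had 4.41 to 5.15 CPM in WT and 3.15 to 7.5 CPM in mutant molars.

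Of the other chains, 2 were lower and 1 was higher. Col26a1 (ENSMUSG00000004415, chr5:136741759-136883209), a small secreted collagen first described in reproductive tissue, had 104, 85.7, 82.2 and 115 CPM in WT and 33.8, 52.8, 43 and 57 CPM in mutant molars. Each mutant lay well under the lowest WT embryo, J6. The gene was at 0.483 of its WT level, a log2 fold change of -1.05 (standard error 0.17, edgeR adjusted p = 0.0104), the smallest adjusted p of all members. Its call held with each of the 8 embryos left out in turn, with adjusted p up to 0.0438, but not without J6 and J7 together (log2 fold change -1.02, adjusted p = 0.126).

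Col8a2 (ENSMUSG00000056174, chr4:126286793-126314330), a short chain of the hexagonal network found under the corneal endothelium, had 93.3, 71.6, 87.7 and 130.3 CPM in WT and 36.5, 60.9, 34.2 and 48.2 CPM in mutant molars. The groups did not overlap, and J7 was the highest of the WT embryos. The gene was at 0.469 of its WT level, a log2 fold change of -1.09 (standard error 0.22, edgeR adjusted p = 0.0173), and the call was lost without J3, J7 or K14J29, with adjusted p up to 0.0584. Its partner chain Col8a1 had 40.6 to 59.5 CPM in WT and 16.6 to 51.1 CPM in mutant molars. Of the mutants, K14J28 alone was in the WT range, and Col8a1 was not called (log2 fold change -0.74, edgeR adjusted p = 0.113). The 5 dental mesenchyme markers summed to 273 to 306 CPM in WT and 202 to 228 CPM in mutant molars, with 4 of 5 called lower (Twist1, Msx1, Pax9 and Barx1), against 6.61% of all tested genes. Their part in the result was not tested.

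Col28a1 (ENSMUSG00000068794, chr6:7997808-8192617), a chain of peripheral nerve, had 2.32, 2.14, 2.9 and 2.13 CPM in WT and 4.66, 3.42, 6.23 and 4.5 CPM in mutant molars. All mutants were above all WT embryos, K14J29 most, though the level was low, at no more than 180 counts in a library. It was 1.99-fold higher, a log2 fold change of 0.99 (standard error 0.21, edgeR adjusted p = 0.0188), and the call was lost without J3, J5, J7 or K14J29, with adjusted p up to 0.0655. The 5 Schwann cell markers summed to 59.4 to 74.3 CPM in WT and 62.2 to 72.2 CPM in mutant molars, and the smallest edgeR adjusted p among them was 0.183.

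Type VI collagen, which forms beaded filaments around cells, showed no chain called by edgeR. Col6a1 had 249.6, 228, 237 and 286 CPM in WT and 189.5, 266, 234 and 224 CPM in mutant molars. Col6a2 had 223, 224, 236 and 272 CPM in WT and 204, 227, 220.4 and 235 CPM in mutant molars, and Col6a3 had 219, 222, 231 and 274 and 180.0, 268, 233 and 226 CPM. The 3 chains kept close to each other in every embryo, and all overlapped between the groups. Their log2 fold changes were -0.13, -0.11 and -0.062. The minor chains Col6a4, Col6a5 and Col6a6 had at most 0.830, 13.4 and 4.66 CPM in WT molars. Col6a6 was highest in J7, at 4.66 CPM against 0.989 to 1.76 CPM in the other WT embryos, and lowest in K14J28. Its log2 fold change of -1.80, which the high J7 value enlarged, was not called (edgeR adjusted p = 0.0604).

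**Figure D3:**
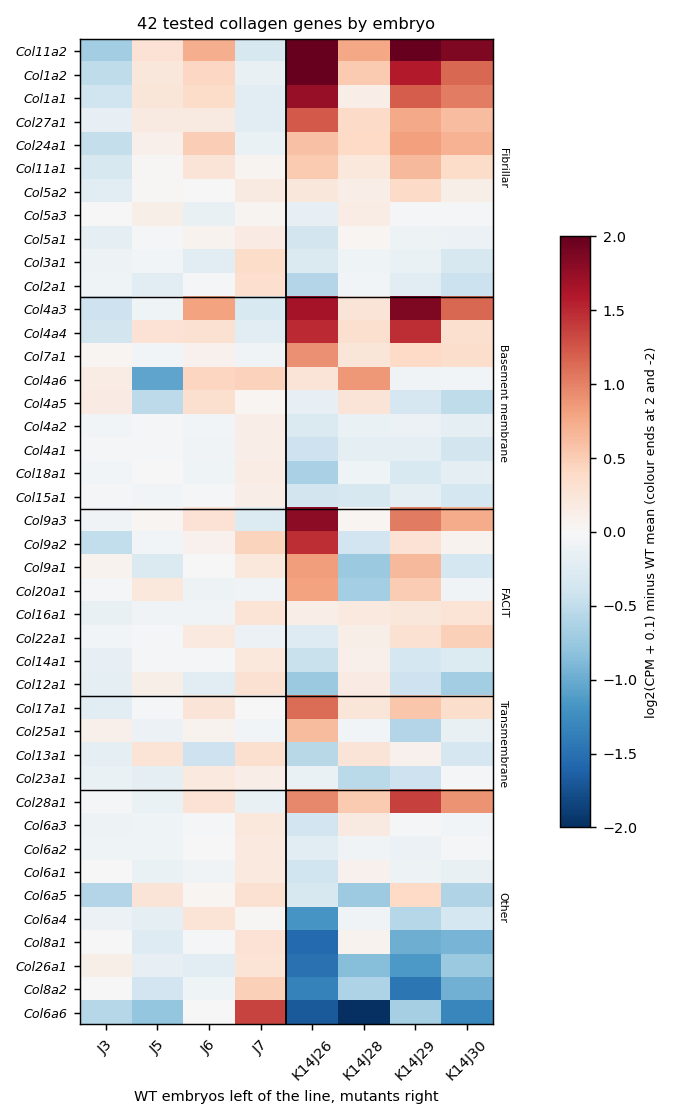
Level of each of the 42 tested collagen genes (rows, by class) in each embryo (columns) as log2(CPM + 0.1) minus the WT mean, with the colour scale ending at 2 and -2. The 6 fibrillar rows at the top, Col11a2 to Col11a1, are red in K14J26, K14J29 and K14J30 and paler in K14J28, the lower fibrillar rows are pale or blue, and Col26a1, Col8a1 and Col8a2 are blue in most mutants.

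As a share of all gene counts, the 44 collagen genes took 1.32%, 1.71%, 1.82% and 1.58% in WT embryos and 3.1%, 1.78%, 2.69% and 2.4% in mutants. K14J28 fell inside the WT range and the other mutants above it. The mean was 1.61% ± 0.213 in the WT group and 2.49% ± 0.555 in the mutant group (SD, n = 4 each), with no test made of this sum. Col1a1 and Col1a2 made up the difference, at 0.804% ± 0.202 and 1.7% ± 0.586 of the counts (SD, n = 4 each). The other 42 genes together took 0.801% ± 0.0651 and 0.791% ± 0.0411. Among these, the basement membrane chains took 0.174% to 0.194% in WT and 0.129% to 0.17% in mutant molars, without overlap. The shares of the FACIT, transmembrane and other chains overlapped between the groups. Within the collagen counts, type I had a mean share of 49.5% in WT and 66.7% in mutant molars. With Amelx, Ambn and Enam left out of the total, the collagen share in K14J26 was 3.42%.

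**Figure D4:**
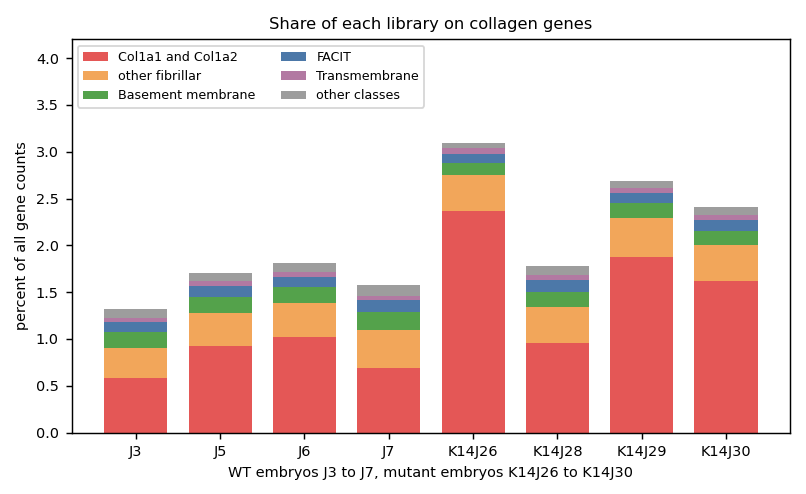
Percent of all gene counts on collagen genes in each embryo (stacked bars from 0), split into Col1a1 with Col1a2, the other fibrillar chains and the other classes. The type I segment ranges from 0.586% in J3 to 2.36% in K14J26, while the segments above it together range from 0.7345% to 0.8912%.

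The balance of chains that assemble together was compared as the log2 ratio of their CPM within each library, which does not depend on scaling. Of 12 ratios, 4 did not overlap between the groups, all lower in mutant molars (exact permutation test, two-sided, p = 0.0286 each, the smallest that 70 arrangements can give). With Benjamini-Hochberg adjustment over the 12 ratios this p became 0.0857, so no ratio passed. How often ratios of other gene pairs do not overlap was not computed, and 24.2% of single tested genes did not overlap. Col1a1/Col1a2 was 1.06, 0.96, 0.90 and 0.89 in the WT embryos and 0.55, 0.56, 0.57 and 0.82 in the mutants. K14J30 lay near the WT embryos and the other mutants close together under it. Col11a1/Col11a2 was 1.98, 1.35, 1.14 and 1.98 in WT and -0.91, 1.05, -0.061 and 0.12 in mutant molars. By CPM, which leaves length out, Col11a1 was above Col11a2 in all WT embryos and below it in K14J26 and K14J29. Per base of merged exons it was above Col11a2 in all WT embryos and below it in K14J26, K14J29 and K14J30.

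Col4a1/Col4a2 was 0.56, 0.54, 0.51 and 0.53 in WT and 0.40, 0.49, 0.48 and 0.37 in mutant molars, a mean difference of only -0.10. Col5a1/Col5a2 was -0.74, -0.82, -0.69 and -0.77 in WT and -1.36, -0.84, -1.25 and -0.99 in mutant molars, with K14J28 just under the lowest WT embryo, J5. Col3a1/Col1a1, the balance of type III to type I fibrils, was -1.34, -1.93, -2.21 and -1.06 in WT and -3.66, -1.86, -2.98 and -2.98 in mutant molars, and the groups overlapped at K14J28 (exact permutation p = 0.0857). The type VI ratio Col6a1/Col6a2 overlapped between the groups and ran from 0.0051 to 0.16 in WT and from -0.10 to 0.23 in mutant molars. Ratios per length depended on the gene model. Per base of merged exons, Col1a1 was 3.67 times Col1a2 in WT and 2.94 times in mutant molars, whereas with the length of the longest coding transcript, a comparison added after seeing the data, these were 1.75 and 1.40.

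**Figure D5:**
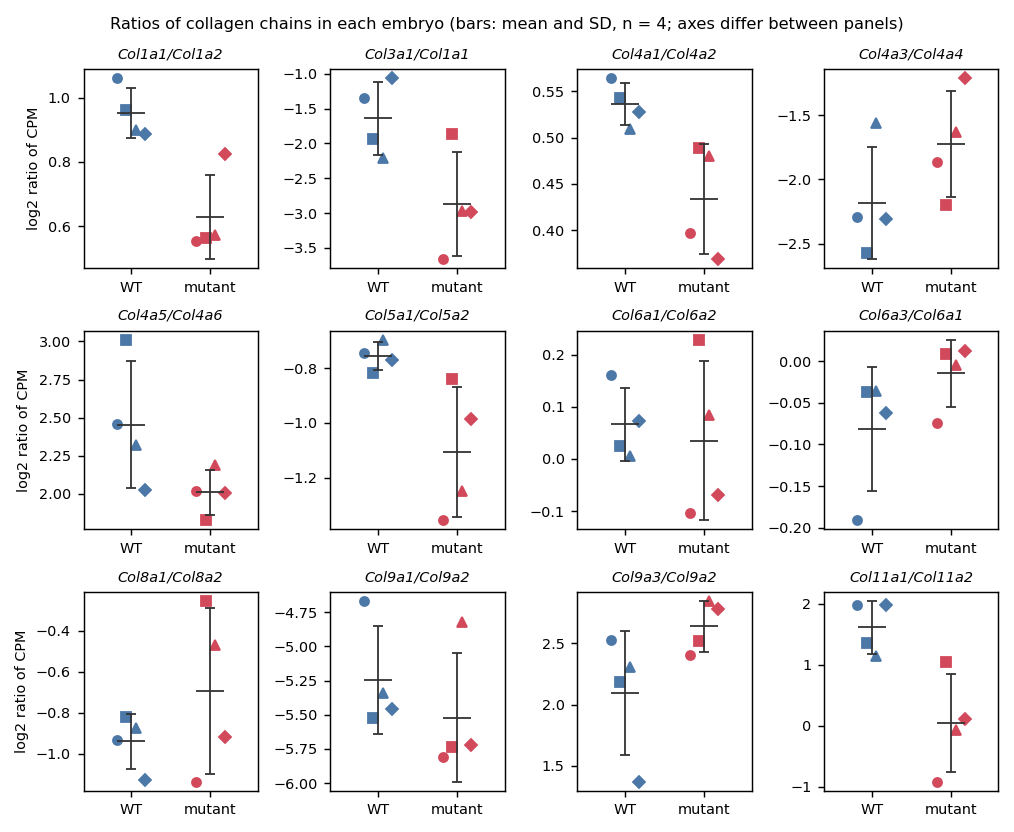
Log2 ratio of the CPM of 2 collagen chains (vertical axes, which differ between the 12 panels) in each WT (blue) and mutant (red) embryo, with group mean and SD. In the panels of Col1a1/Col1a2, Col4a1/Col4a2, Col5a1/Col5a2 and Col11a1/Col11a2 the mutant points all lie under the WT points.

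The order of the embryos within a group recurred among the collagen genes. Dspp, the gene of the main non-collagenous dentin proteins, was at 350.0, 1047, 1376 and 398 CPM in WT and 6549, 1799.9, 4694 and 2640.1 CPM in mutant molars, so that the mutants ran K14J26, K14J29, K14J30, K14J28 from high to low and the WT embryos J6, J5, J7, J3. This order was chosen as a reference after values were seen. Among the 42 tested members, 11 (26.2%) had the same order in the mutants, against 13.6% of all tested genes: Col11a2, Col1a1, Col1a2, Col27a1, Col4a4, Col7a1, Col20a1, Col9a1, Col9a2, Col9a3 and Col17a1. The order held in both groups for 4 members (9.52%), Col11a2, Col1a1, Col1a2 and Col4a4, against 2.10% of all genes. The reverse order in the mutants was seen for 5 members (11.9%), against 12.5% of all genes.

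Genes that make, modify, export, trim, cross-link, bind or degrade collagen were read from a list of 52, all of which could be tested. Of these, 11 were called higher and 1 lower by edgeR (23.1% in all), against 9.52% and 6.61% of all tested genes, and their median log2 fold change was 0.26, against 0.0058 for all tested genes. The groups were fully apart for 8 higher genes and 1 lower gene of the list (17.3% in all), against 24.2% of all tested genes. Of the cross-linking enzymes, Lox and Loxl4 were called. Lox, the lysyl oxidase that starts cross-links in fibrillar collagen, had 63.7, 96.9, 105 and 77.1 CPM in WT and 217, 151, 191 and 127 CPM in mutant molars, corresponding to a log2 fold change of 0.999 (standard error 0.20, edgeR adjusted p = 0.0166). Loxl4 of the same family had 4.09, 8.7, 12.3 and 4.73 CPM in WT and 54.9, 17.3, 36.3 and 24.4 CPM in mutant molars, corresponding to a log2 fold change of 2.16 (standard error 0.43, edgeR adjusted p = 0.0168). Every mutant exceeded every WT embryo for both, and Loxl1, Loxl2 and Loxl3 were not called. The calls of Lox and Loxl4 were lost without J7 or K14J29, and that of Loxl4 also without J3, with adjusted p up to 0.0573 and 0.0576.

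Among the enzymes that modify the chains in the endoplasmic reticulum, Plod2, the lysyl hydroxylase of telopeptides, had 202, 301, 397 and 229.6 CPM in WT and 1363, 500.1, 1090.0 and 599 CPM in mutant molars. The groups did not overlap, at a log2 fold change of 1.65 (standard error 0.34, edgeR adjusted p = 0.0175), and the call was lost without J3, J5, J7 or K14J29, with adjusted p up to 0.0617. The prolyl 4-hydroxylase subunit gene P4ha2 had a log2 fold change of 0.81, the prolyl 3-hydroxylase gene P3h1 of 0.51, the peptidyl-prolyl isomerase gene Fkbp14 of 0.74 and the export factor gene Mia2 of 0.30. For P4ha2 and P3h1, K14J28 lay within the WT range. With 1 embryo left out, the call of P3h1 held in 1 of 8 fits, those of P4ha2 and Mia2 in 3 and that of Fkbp14 in 4, with edgeR adjusted p up to 0.116, 0.103, 0.0974 and 0.0613. Serpinh1, the collagen chaperone, had 1273 to 1464 CPM in WT and 1150.4 to 1564 CPM in mutant molars and was not called (edgeR adjusted p = 0.551).

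Of the genes for propeptide removal, Adamts14, a protease that cuts the amino propeptide, and Pcolce2, an enhancer of carboxyl propeptide removal, were higher by 1.01 and 0.56 on the log2 scale. For Adamts14, K14J28 lay within the WT range. The calls of Adamts14 and Pcolce2 held in 3 and 2 of the 8 fits with an embryo left out, with edgeR adjusted p up to 0.0946 and 0.106. Adamts3, a related protease, was the single lower gene of the list, with 68.5, 65.4, 61.7 and 72.5 CPM in WT and 32.2, 53.7, 46.4 and 55.4 CPM in mutant molars, corresponding to a log2 fold change of -0.51 (standard error 0.15, edgeR adjusted p = 0.0492). Its values did not overlap, but its call was lost without J3, J5, J6, J7 or K14J29, with adjusted p up to 0.127. The collagen-binding integrin genes Itga10 and Itga11 were higher by 0.87 and 0.64, with every mutant above every WT embryo for both and calls that held in 5 of those 8 fits each. None of the 7 genes for collagen breakdown was called by edgeR, against 16.1% of all tested genes. By log2 fold change 4 were higher and 3 lower in mutant molars, and 1 (Mmp8) had an unadjusted p under 0.05. DESeq2 called none of these 7. Ctsk and Mmp9 were highest in K14J28, at 806.4 and 540.1 CPM. Their log2 fold changes of 1.035 and 0.7365 had standard errors of 0.573 and 0.4071. With so few genes, the absence of calls cannot be told from the share over all genes. Without K14J29 or J7 no gene of the list was called, with 17 and 18 higher and 3 and 1 lower at an unadjusted p under 0.05, and without K14J28 there were 21 higher and 2 lower calls.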

How the data were processed

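RNA of E18.5 lower first molars was sequenced from 4 K14Cre;Jagged1fl/fl and 4 WT embryos. Reads were trimmed (Trimmomatic) and aligned to GRCm38 (STAR), and the authors deposited 1 table per embryo of raw, unnormalized counts on Ensembl genes. The methods name GenomicRanges and the submitters' processing notes featureCounts as the counter. The treatment of strand and of reads with several matches was not given in the sources used here, and the library kit (TruSeq) does not mark strand. Symbols and positions came from GENCODE M21, which holds 42548 of the 43629 identifiers.

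A gene was tested when 2 or more embryos of a group had 10 or more counts, which 17129 did, with edgeR 4.0.16 in R 4.3.3 (TMM, quasi-likelihood test, no covariates, Benjamini-Hochberg adjustment over all genes tested). A gene was called at an adjusted p under 0.05. CPM values use the TMM-scaled library size, and a standard error is the size of the log2 fold change over the root of its F value. Levels per length used merged exons. Chain ratios were log2 CPM differences with a prior count of 0.5, compared by an exact permutation test over embryos. Counts of 16816 genes were simulated for this comparison. Of genes changed by 1 on the log2 scale, 86% were recovered, and of those changed by 2, 97%. Unchanged genes made up 5.18% of what was called. Whether these rates hold with libraries that stand apart from their group, as several did here, was not tested.

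Replicates are separate embryos, and counts of embryos of 1 group differed beyond counting noise in all 12 pairs. The alternatives were relative log expression (RLE), upper-quartile and plain library size scaling, other count filters, DESeq2 1.42.0, Xist as a covariate, and leaving out embryos. Members and lists were chosen with earlier results of these data known. Values per embryo are given for called members, the 3 highest per length in each class, and the chains of the ratios described, with all called genes of the maturation list named. Promoters were matched by symbol in a RefSeq table (GRCm38.p6) that held 35 of the 44 members. Protein sequences were not analysed here.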

Additional observations from a re-analysis of the deposited data

Results flagged for a closer look

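Within groups of 4, a value was picked out where its gap to the nearest other value exceeded Dixon's 95% limit as a share of the whole range, which chance does for about 1 in 20 groups. Of 108 groups tested, over the tested collagen genes and the 12 ratios, 5 were picked out. Among the WT embryos, J7 was the highest for Col15a1, at 48.4 CPM against 42.7 to 43.2 CPM, and for Col4a2, at 499.9 CPM against 435 to 444 CPM. J3 had the lowest Col6a3/Col6a1 log2 ratio, -0.19 against -0.062 to -0.036. Among the mutants, K14J30 had the highest Col1a1/Col1a2 log2 ratio, 0.82 against 0.55 to 0.57. K14J29 had the highest Col9a1/Col9a2 log2 ratio, -4.82 against -5.81 to -5.72.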

How the results depend on the processing

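The 6 higher and 4 lower calls became 12 and 7 with DESeq2, and the study's criteria gave 11 higher genes. With any 1 embryo left out, edgeR called 0 to 12 members higher and 1 to 8 lower. Without J6 and J7 it called 0 higher and 0 lower, as it did for the maturation list. That list had 11 higher and 1 lower calls. With an embryo left out these became 0 to 21 and 0 to 2. Its lower call (Adamts3) was lost by library size only, with no count filter (0 lower calls each) and with Xist as a covariate, where the 2 lower calls were Itga1 and Loxl1. Library size only left 8 of its higher calls, without Mia2, P3h1 and Pcolce2, and Xist as a covariate lost Mia2 and Pcolce2. Among the collagen genes, the same fits on the 8 libraries lost only the call of Col4a1, by library size only (edgeR adjusted p = 0.060) and with no count filter (0.057). Jag1 ranged from -1.34 to -1.09 on the log2 scale with an embryo left out, and the difference in collagen share from 0.685 to 1.13 percentage points.

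The 10 called members kept their sign in all 160 alternative values, 53 of which lost the call, and 30 of 512 values of the other members gained one. Signs changed for members near 0: Col25a1 with upper-quartile scaling (-0.024), library size only (-0.099) and without J5 (-0.027), J7 (-0.0037) or K14J26 (-0.25); Col4a6 with Xist (-0.019) and without J5 (-0.065) or K14J28 (-0.071); Col5a3 without J5 (0.013) or K14J26 (0.034); and Col6a3 without J6 and J7 (0.039), J7 (0.0094) or K14J26 (0.033). Without K14J26, Col20a1 (-0.0068), Col9a1 (-0.044) and Col9a2 (-0.030) also changed sign. The difference in the ratio Col6a1/Col6a2 changed sign without J3 (0.000316), K14J26 (0.015) or K14J30 (0.0036). With an embryo left out, Col25a1 ranged up to 0.19, Col4a6 up to 0.35, Col20a1 up to 0.44, Col9a1 up to 0.49 and Col9a2 up to 0.70, and Col5a3, Col6a3 and the ratio Col6a1/Col6a2 down to -0.076, -0.16 and -0.096. The cause was not tested. No paired analysis was possible because the labels give the groups no shared replicate numbers. Col10a1 and Col19a1 entered the test only with no count filter, and neither was then called.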
